A study of Mus musculus with 2 samples.

Results

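Expression of 10 genes that mark embryonic epithelium, the surface ectoderm in particular, was measured in the E10.5 mouse brain. The genes were *Epcam*, *Cdh1*, *Cldn6*, *Krt8*, *Krt18*, *Krt19*, *Grhl2*, *Grhl3*, *Trp63* and *Esrp1*. They were chosen by name, with earlier results of these data known. All 10 were found among the 37074 gene names on the array, with 17 probes in all. The study compared RNA from wild type embryos with RNA from embryos homozygous for luxoid, a spontaneous mutation of *Plzf* (gene symbol *Zbtb16*) that leaves a severely truncated protein. The labels give the tissue as brain at E10.5, and the methods name forebrain and midbrain. The wild type sample carried the strain label C57BL/6 and the mutant sample the label luxoid, with no other allele or treatment given. Each of 2 arrays held 1 wild type sample in Cy3 and 1 *Plzf* lu/lu sample in Cy5, labeled as biological replicates, and the number of embryos behind each is not given in the sources used here. Because the dyes were not exchanged and the strain label differs, dye, strain and genotype cannot be told apart.

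Surface ectoderm is the outer epithelial sheet that covers the embryonic head and later forms epidermis, lens and the sensory placodes. Its cells are held together by E-cadherin and claudins and filled with simple keratins, and Grainyhead-like factors and p63 switch on and maintain this epithelial state. Neuroepithelium, which makes up the brain wall at this stage, has replaced E-cadherin with N-cadherin and carries little of this set. Most of these genes also mark other epithelia such as gut endoderm, while p63 is closely tied to stratifying surface epithelium.

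The probes behind the results are shown first, because for *Krt8* and *Trp63* more than 1 probe was measured above background and the *Trp63* probes gave different ratios. Each probe is 60 bases long, its first 30 bases are printed 5′ to 3′ in lower case, and no base is marked. No 2 probes of a gene shared a run of 20 bases.
Krt8 probe for NM_031170: ccgaggatcagccctaatcctctggccaac
Krt8 probe for AK166854: ccatccaaacccaattcagttgtattttct
Trp63 probe for NM_001127261: acacgatcgaaacgtacaggcagcagcagc
Trp63 probe for NM_011641: caaaaggtactttcttatagacatgatact
Trp63 probe for AK138305: acttaccatgtgtcctggctatagcttttc
Grhl3 probe for NM_001013756: ggaacaaatacccttgccacctactgttgt
The *Krt8* probes lie side by side on the minus strand of chromosome 15 (mm9, chr15:101827214-101827273 and chr15:101827138-101827197). The *Trp63* probes lie on the plus strand of chromosome 16, at chr16:25871159-25871218, chr16:25892012-25892071 and chr16:25821344-25821403 in the order printed. *Grhl3* was probed at chr4:135097991-135098050 on the minus strand. Whether a probe falls in an exon or a UTR was not determined here.

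Promoters are shown for the keratin pair, whose signals moved alike across the 4 samples, and for *Grhl3*, whose signals did not follow them. The sequences are from RefSeq (GRCm38.p6), run from 250 bases before to 50 bases after the annotated start, and carry in capitals the E-box CAGGTG or its reverse complement CACCTG, the core bound by the Snail and Zeb repressors of epithelial genes.
Krt8 promoter, chr15:102004293-102004592, minus strand: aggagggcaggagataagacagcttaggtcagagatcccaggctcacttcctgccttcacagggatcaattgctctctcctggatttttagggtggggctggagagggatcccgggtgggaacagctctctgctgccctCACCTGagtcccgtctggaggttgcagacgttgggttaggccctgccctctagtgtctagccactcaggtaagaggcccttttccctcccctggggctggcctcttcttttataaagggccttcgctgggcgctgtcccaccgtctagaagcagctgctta
Krt18 promoter, chr15:102027966-102028265, plus strand: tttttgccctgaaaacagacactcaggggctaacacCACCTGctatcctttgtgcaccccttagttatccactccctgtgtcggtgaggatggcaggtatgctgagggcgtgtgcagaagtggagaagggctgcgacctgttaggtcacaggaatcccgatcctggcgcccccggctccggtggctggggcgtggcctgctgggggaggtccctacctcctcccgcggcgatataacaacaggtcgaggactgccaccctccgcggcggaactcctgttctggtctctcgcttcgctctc
Grhl3 promoter, chr4:135573583-135573882, minus strand: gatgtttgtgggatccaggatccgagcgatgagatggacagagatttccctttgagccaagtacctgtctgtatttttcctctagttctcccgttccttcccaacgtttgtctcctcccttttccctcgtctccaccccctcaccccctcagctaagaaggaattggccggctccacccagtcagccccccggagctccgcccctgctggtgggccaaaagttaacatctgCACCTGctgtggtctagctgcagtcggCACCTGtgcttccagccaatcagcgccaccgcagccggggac
Of the 10 genes, 5 had a promoter in the table (*Cldn6*, *Epcam*, *Grhl3*, *Krt18* and *Krt8*), and *Cdh1*, *Krt19*, *Grhl2*, *Trp63* and *Esrp1* did not match. All 5 held at least 1 E-box on either strand, against 20.2% of the 32851 promoters of the same length. The E-box stood 111 bases before the start in *Krt8* and 214 bases before it in *Krt18*. *Grhl3* had one 19 bases before and another 8 bases after the start. A Grainyhead-like motif, AACCNGTT or its reverse complement AACNGGTT, was in 0 of the 5 promoters and in 2.09% of all promoters. The motifs share no letters by overlap in these windows, and a match describes the letters only.

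In the array data, 10600 genes were bright enough to test, each taken at its brightest probe. These had a processed signal above 200 in all 4 channels, with a signal at least 5 times the noise of the local background. The mutated gene was measured first. *Zbtb16* had a processed signal of 433 in wild type and 172 in lu/lu on array 1, and 546 and 211 on array 2, so both lu/lu samples lay below both wild type samples. Its ratio of lu/lu to wild type was 0.397 and 0.386. With 172 on array 1 the gene was outside the tested set, and when 1 channel above the minimum on each array was enough it entered through wild type, a route that favours a difference, with an adjusted p of 0.0448 (limma, Benjamini-Hochberg). Between 36936 and 44318 gene spots per channel were well above background, and the wild type channel of array 1 had the fewest. Precision is limited by the number of arrays, since an exact sign-flip test over 2 arrays cannot go below p = 0.5, and p-values measure only the spread between these samples.

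Epithelial transcripts were present in all 4 samples, and 7 genes were above the signal minimum in all channels. At its brightest probe, none of these was higher or lower in *Plzf* lu/lu by more than 1.3-fold on both arrays. Of the other genes, *Grhl3* was higher on both arrays, at 1.55-fold and 1.73-fold, with wild type signals under the minimum. A dimmer *Trp63* probe was also higher, at 2.16-fold and 1.35-fold, with its wild type signal on array 1 under the minimum. On array 1 the brightest probes of the set had ratios from 1.02-fold for *Trp63* to 2.15-fold for *Cdh1*, lu/lu over wild type. *Krt18* was at 1.61-fold, *Epcam* at 1.46-fold and *Krt8* at 1.37-fold, against 1.17-fold for *Krt19* and 1.04-fold for *Cldn6*. On array 2 *Krt8* was lower in lu/lu, at 0.630 of wild type, as were *Krt18* at 0.792, *Epcam* at 0.814 and *Cdh1* at 0.884. *Trp63*, like *Grhl3*, did not share this pattern. In bulk tissue, fewer epithelial cells and less RNA per cell cannot be told apart.

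All 10 genes had a brightest probe well above background in every channel, and 7 passed the signal minimum: *Epcam*, *Cdh1*, *Krt8*, *Krt18*, *Krt19*, *Trp63* and *Esrp1*. *Grhl2*, *Grhl3* and *Cldn6* did not pass. Of the 7, 0 had a ratio above 1.3 on both arrays, where 2.58% of all genes tested did, and 0 were below the inverse of 1.3 on both, where 0.736% did. On array 1 alone 5 of the 7 were above 1.3-fold, a share that was 8.25% over all genes. On array 2 alone 2 of the 7, *Krt8* and *Krt19*, were below the inverse of 1.3, against 1.96% of all genes. The sign of the ratio was positive on array 1 for 7 of the 7 (53.1% of all genes) and negative on array 2 for 6 of the 7 (51.2%). With the 3 dimmer genes included, 10 of 10 were positive on array 1 and 8 of 10 negative on array 2. The median log2 ratio of the 7 was 0.46 on array 1 and -0.30 on array 2, while the median of all genes tested was 0.02 and -0.0047. In limma, 0 of the 7 had an adjusted p under 0.05, against 3 of all genes tested (0.0283%), and 0 had an unadjusted p under 0.05, against 2942 of all genes (27.8%).

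**Figure D1:**
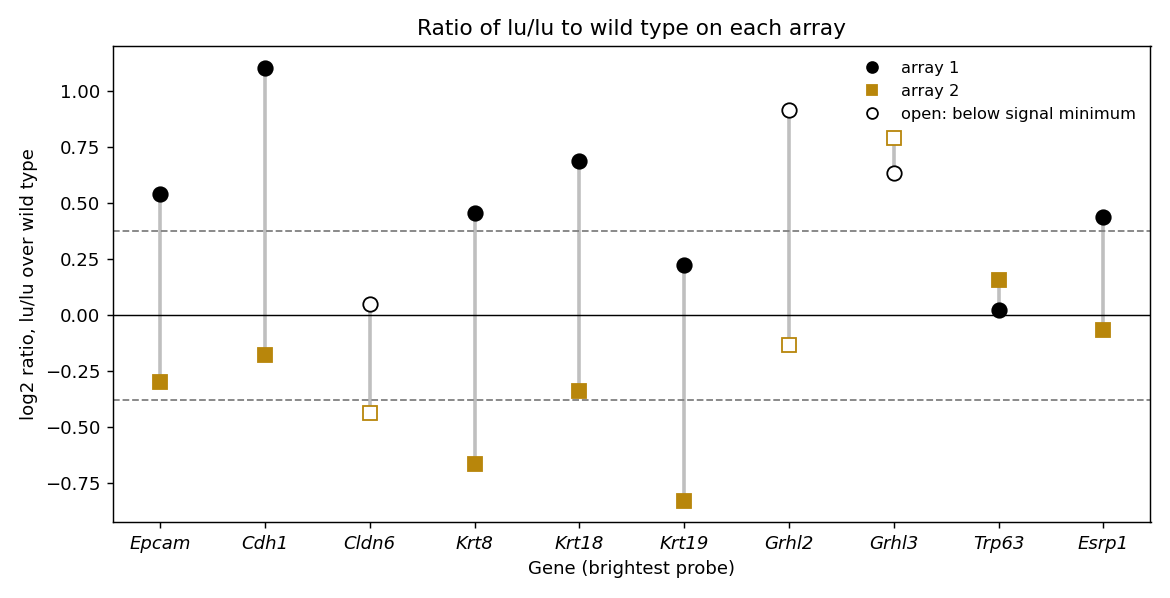
Log2 ratio of lu/lu to wild type for the brightest probe of each gene on array 1 (circles) and array 2 (squares), with a grey line joining the arrays, open symbols for genes below the signal minimum and dashed lines at 1.3-fold. All 10 circles lie above 0 and 8 of the 10 squares below it, the exceptions being *Grhl3* and *Trp63*.

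All 3 simple keratins had a positive log2 ratio on array 1 and a negative one on array 2, and *Krt8* was beyond 1.3-fold in each direction. *Krt18*, the type I partner of keratin 8 in simple epithelia (NM_010664, mm9 chr15:101862341-101862400, plus strand), had a processed signal of 4696 in wild type and 7581 in lu/lu on array 1, and of 6990.2 and 5536 on array 2. *Krt8*, which pairs with keratin 18 in the same filaments, had 2233.5 and 3066 on array 1 and 3294.5 and 2077 on array 2 with its brighter probe. In both genes lu/lu was the higher sample on array 1 and the lower one on array 2, and the wild type and lu/lu ranges overlapped. The second *Krt8* probe gave 1651 and 2453 on array 1 and 2349.6 and 1589.7 on array 2. Its log2 ratios of 0.57 and -0.56 had the same signs as those of the brighter probe, 0.46 and -0.67. *Krt8* was the 1 member above 1.3-fold on array 1 and below its inverse on array 2, a combination found in 0.123% of the genes tested.

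*Krt19*, a smaller type I keratin of simple epithelia and periderm (NM_008471, chr11:100002392-100002451, minus strand), had a processed signal of 375 in wild type and 438 in lu/lu on array 1, and of 435 and 245 on array 2. Here 3 samples lay close together and lu/lu on array 2 was the low one. The mean log2 ratio was -0.30 for *Krt19* (SD 0.74, n = 2 arrays), -0.10 for *Krt8* (SD 0.79) and 0.18 for *Krt18* (SD 0.73). Their adjusted p-values were 0.433, 0.805 and 0.636 (limma, Benjamini-Hochberg), and each 95% interval reached past 1.3-fold, for *Krt18* from -0.39 to 0.75. Differences of 1.3-fold in the keratins were therefore not excluded by the intervals. Whether these probes also bind other keratin transcripts was not tested.

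**Figure D2:**
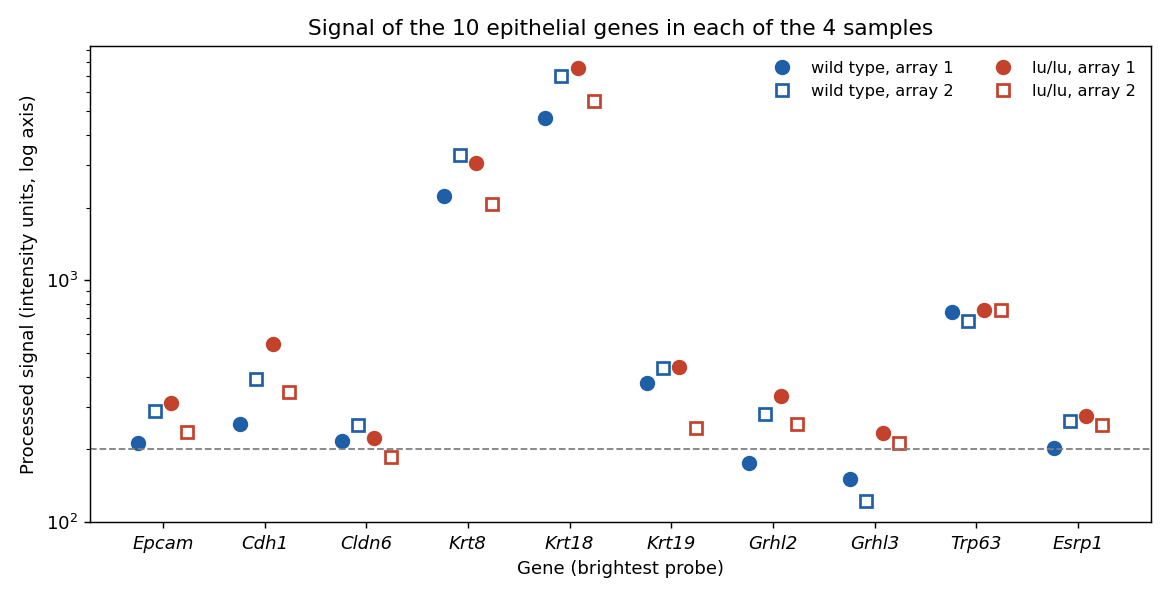
Processed signal (log axis) of the brightest probe of each gene in wild type (blue) and lu/lu (red) on array 1 (filled circles) and array 2 (open squares), with the signal minimum of 200 as a dashed line. Within most genes the wild type square lies above the wild type circle and the lu/lu square below the lu/lu circle, as in *Krt18* with 4696 and 6990.2 in wild type and 7581 and 5536 in lu/lu. Levels are to be compared within a gene only.

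Adhesion genes followed the keratins. *Cdh1*, which encodes E-cadherin, the adherens junction cadherin of epithelia (NM_009864, chr8:109193812-109193871, plus strand), had a processed signal of 254 in wild type and 546 in lu/lu on array 1, and of 391 and 346 on array 2. The wild type sample of array 1 was the lowest of the 4 and the lu/lu sample of the same array the highest. The log2 ratios were 1.11 and -0.18, with a mean of 0.46 (SD 0.91, n = 2), a 95% interval from -0.23 to 1.16 and an adjusted p of 0.326 (limma, Benjamini-Hochberg). *Epcam*, a homophilic adhesion protein of epithelial cells (NM_008532), had a processed signal of 213 and 309.8 on array 1 and of 289 and 235.5 on array 2. As for *Cdh1*, the lowest and the highest of the 4 samples were wild type and lu/lu of array 1, and the groups overlapped. Its log2 ratios were 0.54 and -0.30, and its adjusted p was 0.698 (limma, Benjamini-Hochberg). The *Epcam* probe was placed at chr17:88048972-88049800 on the plus strand, a span of 829 bases for a 60-base probe.

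*Cldn6*, a tight junction claudin of embryonic epithelia (NM_018777, chr17:23819027-23819086, plus strand), had a processed signal of 216 in wild type and 223.5 in lu/lu on array 1, and of 253 and 187 on array 2. It missed the signal minimum through the last of these samples. Its log2 ratio was 0.05 on array 1 and -0.44 on array 2. *Esrp1*, an RNA-binding protein that sets the epithelial pattern of splicing (NM_194055, chr4:11260208-11260267, minus strand), had 203 and 275 on array 1 and 263 and 251 on array 2. Its log2 ratios were 0.44 and -0.07, with a mean of 0.19 (95% interval -0.14 to 0.51) and an adjusted p of 0.384 (limma, Benjamini-Hochberg). The 2 other *Esrp1* probes were not well above background in every channel.

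The transcription factors did not share 1 pattern. *Grhl2*, a Grainyhead-like activator of *Cdh1* and claudin genes (NM_026496, chr15:37293139-37293198, plus strand), had a processed signal of 176 in wild type and 332 in lu/lu on array 1, and of 279.6 and 255 on array 2. It followed *Cdh1*, with the lowest sample in wild type and the highest in lu/lu on array 1, and log2 ratios of 0.92 and -0.13. Its second probe was not well above background in every channel. *Grhl3*, the Grainyhead-like factor required for neural tube closure and the skin barrier, had 151 and 235 on array 1 and 123 and 213 on array 2. Both lu/lu samples lay above both wild type samples, with ratios of 1.55 and 1.73 and a mean log2 ratio of 0.71 (SD 0.11, n = 2).

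The wild type signals of *Grhl3* were under the minimum of 200 on both arrays, so the gene was outside the tested set. When 1 channel above the minimum was enough, *Grhl3* entered through its lu/lu samples, a route that requires a difference, and its adjusted p was 0.0665 (limma, Benjamini-Hochberg, 11079 genes). Among the 23283 genes well above background in every channel its adjusted p was 0.252 by the same test. *Grhl3* thus exceeded 1.3-fold on both arrays and did not pass the adjusted threshold in either set. With its 1 probe, no second measurement of this gene was available. That probe had a GC content of 35%, and the part of base composition in its ratios was not tested.

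*Trp63* encodes p63, which commits surface ectoderm to a stratified fate. Its brightest probe, for NM_001127261, had a processed signal of 739 in wild type and 752 in lu/lu on array 1, and of 677 and 755 on array 2. Both lu/lu samples were above both wild type samples by a small margin. The mean log2 ratio was 0.09 (SD 0.09, n = 2), with a 95% interval from -0.11 to 0.29 and an adjusted p of 0.481 (limma, Benjamini-Hochberg). Among the 7 genes, this was the 1 interval that lay within 1.3-fold in either direction.

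The other *Trp63* probes gave other ratios. The probe for NM_011641 had 183 in wild type and 396 in lu/lu on array 1, and 287 and 386 on array 2. Both lu/lu samples again lay above both wild type samples, now by 2.16-fold on array 1 and 1.35-fold on array 2, and the wild type sample of array 1 was under the minimum. The probe for AK138305 had 53.8 and 82.0 on array 1 and 87.7 and 109 on array 2, with log2 ratios of 0.61 and 0.32. The remaining probe was not well above background in every channel. The 3 measured probes thus had a positive log2 ratio on both arrays, and their mean log2 ratios were 0.09, 0.77 and 0.46, so the size of the difference for *Trp63* depended on the probe. In the same order, the GC content of these probes was 55%, 35% and 45%. Over all genes tested, ratios tended to be higher at lower probe GC content, as given below. The part of base composition in the *Trp63* differences was not tested. Over the 7 genes that passed, both lu/lu signals were above both wild type signals in 1 (*Trp63*), against 30.5% of all genes tested, and below both in 0, against 26.3%.

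The distance between the arrays was large for most of the set. Over all genes tested, the log2 ratios of the arrays differed by a median of 0.12. *Cdh1* differed by 1.28, *Krt8* by 1.12, *Krt19* by 1.05, *Krt18* by 1.03, *Epcam* by 0.84 and *Esrp1* by 0.51. A difference as large as that of *Cdh1* was found in 0.142% of the genes tested, and one as large as that of *Esrp1* in 3.41%. *Trp63* differed by -0.13, a size reached by 46.2% of the genes.

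**Figure D3:**
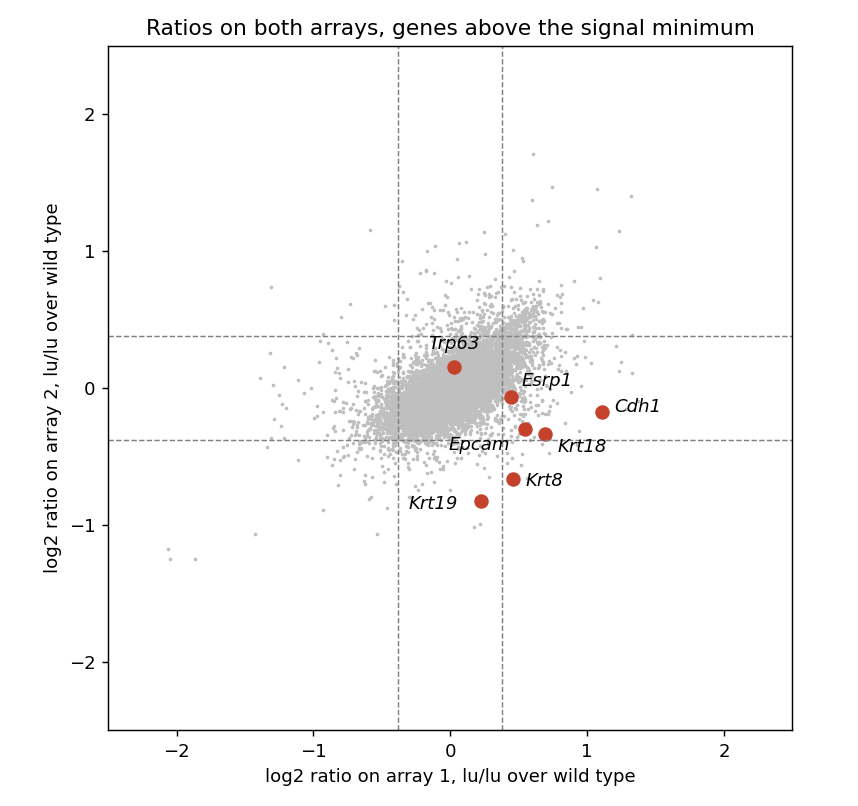
Log2 ratio of lu/lu to wild type on array 1 (horizontal axis) against array 2 (vertical axis) for the 10600 genes tested (grey, 1 gene beyond the axes) and the 7 epithelial genes that passed (red), with dashed lines at 1.3-fold. *Cdh1*, *Krt18*, *Krt8*, *Epcam*, *Krt19* and *Esrp1* lie to the right of 0 and below it, while *Trp63* lies with the bulk of the genes.

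Samples of the same genotype were then compared across the arrays, after each channel was centred on the median of the genes tested. The same signals give the ratios, so this comparison is not independent of the signs reported above. It shows how the difference between the arrays was divided between wild type and lu/lu. Wild type on array 2 was above wild type on array 1 and lu/lu on array 2 below lu/lu on array 1 in 6 of the 7 genes that passed, against 21.0% of all genes tested. With the dimmer genes included it was 8 of 10, the exceptions being *Trp63* and *Grhl3*. In both counts the genes were those with a positive log2 ratio on array 1 and a negative one on array 2. On the log2 scale, *Cdh1* in array 2 differed from array 1 by 0.65 between the wild type samples and by -0.61 between the lu/lu samples. These differences were 0.59 and -0.51 for *Krt8*, and 0.60 and -0.40 for *Krt18*. The median log2 difference of the 7 genes was 0.47 between the wild type samples and -0.40 between the lu/lu samples, outside the range from the 5th to the 95th percentile of all genes, which ran from -0.27 to 0.29 and from -0.20 to 0.25. For these genes the spread between samples of 1 genotype was thus of the size of the median log2 ratios between genotypes, 0.46 and -0.30.

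Other epithelial genes were counted in 4 further lists. Of 14 genes of junctions and desmosomes, 6 passed the signal minimum, with 1 higher beyond 1.3-fold on both arrays and 0 lower, and a median log2 ratio of 0.69 on array 1 and -0.14 on array 2. All 6 had a positive ratio on array 1 and 4 a negative one on array 2. *Perp*, a desmosomal p63 target, had a processed signal of 1625 in wild type and 2159 in lu/lu on array 1, and of 2198 and 1679.8 on array 2, so that it ran in opposite directions on the arrays as the keratins did. *Cldn7*, a claudin that binds EpCAM, had log2 ratios of 0.69 and -0.19. *Cdh3*, which encodes P-cadherin of surface epithelium, had 239.9 and 603 on array 1 and 332 and 434 on array 2. Both lu/lu samples of *Cdh3* were above both wild type samples, at 2.51-fold and 1.31-fold, with an adjusted p of 0.087 (limma, Benjamini-Hochberg).

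Of 9 further epithelial transcription and splicing factors, 4 passed the signal minimum, with a median log2 ratio of 0.37 on array 1 and 0.39 on array 2. Of the 4, 0 had a negative ratio on array 2. *Ovol2*, a zinc finger factor that maintains epithelia, had log2 ratios of 0.17 and 0.13, and *Tfap2c*, an AP-2 factor of surface ectoderm and neural crest, -0.13 and 0.60.

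Keratins of other epithelia passed in 2 of 5 genes, with 0 called, and all 5 were well above background. Over the 2 that passed, the median log2 ratio was 0.08 on array 1 and -0.24 on array 2. Over all 5 it was 0.17 and 0.29, so the sign on array 2 depended on the filter. *Krt7*, a simple epithelial keratin, had log2 ratios of 0.17 and -1.01, the signs seen for *Krt19*, while *Krt14*, a basal epidermal keratin, had -0.01 and 0.53. Of 9 surface proteases, inhibitors and sorting proteins, 3 passed, with 0 higher and 1 lower on both arrays. Their median log2 ratio was 0.31 on array 1 and 0.06 on array 2, and 0.54 and -0.22 over all 9, which were well above background. The lower gene was *Spint2*, a membrane-bound serine protease inhibitor, with 937 and 583 on array 1 and 739 and 536 on array 2, both lu/lu samples being below both wild type samples (adjusted p = 0.0518, limma, Benjamini-Hochberg). *Sfn*, the epithelial 14-3-3 sigma protein, had log2 ratios of 0.31 and 0.26.

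Repressors of the epithelial programme passed in 6 of 6 genes, with 0 higher and 0 lower beyond 1.3-fold on both arrays and a median log2 ratio of -0.03 and 0.17. *Snai1*, which binds E-boxes of *Cdh1*, had a processed signal of 955 in wild type and 805 in lu/lu on array 1, and of 898 and 626 on array 2. Both lu/lu samples were below both wild type samples, and the adjusted p was 0.0866 (limma, Benjamini-Hochberg). *Snai2*, a related repressor named here after its values were seen, ran the other way, with 386 and 592 on array 1 and 460 and 543 on array 2. Its ratios were 1.53 and 1.18, both lu/lu samples being above both wild type samples, and its adjusted p was 0.0908 (limma, Benjamini-Hochberg). *Twist1*, a mesenchymal repressor, had log2 ratios of 0.07 and 0.02.

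**Figure D4:**
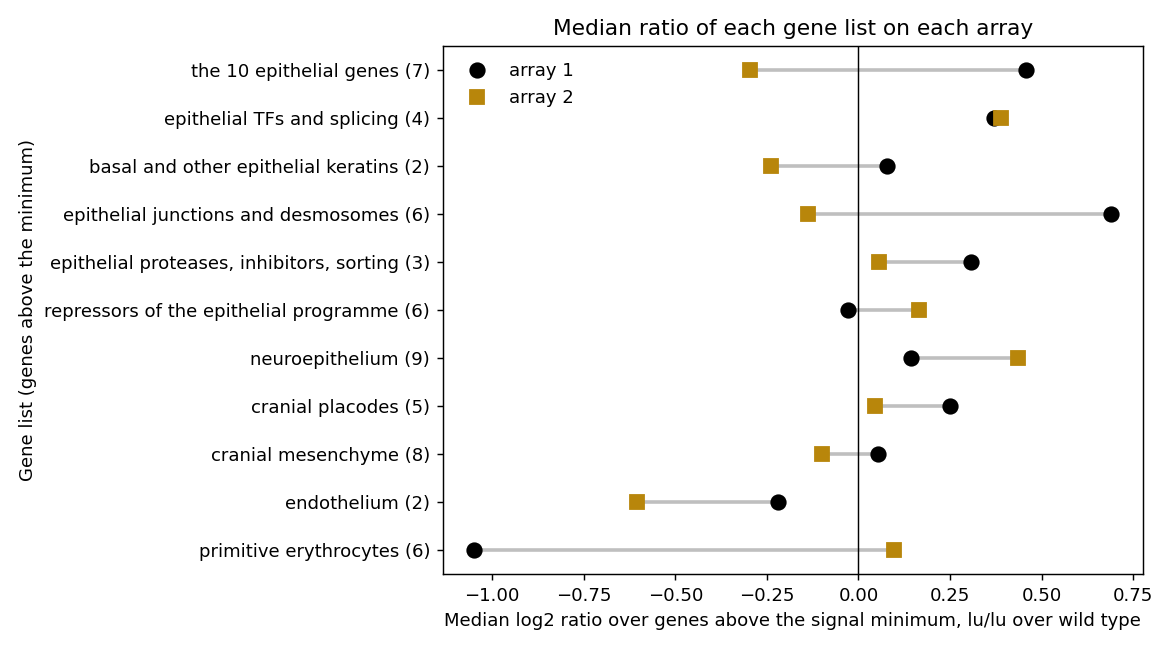
Median log2 ratio of lu/lu to wild type on array 1 (circles) and array 2 (squares) for each gene list, with the number of genes above the signal minimum in brackets. Over the genes that passed, the list of 10 epithelial genes runs from 0.46 to -0.30 and the junction list from 0.69 to -0.14. The erythrocyte list runs from -1.05 to 0.10.

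Markers of other tissues were read in the same samples. Neuroepithelial genes passed in 9 of 9 cases, so the labelled tissue carried its markers. Their median log2 ratio was 0.14 on array 1 and 0.44 on array 2, with 5 of the 9 positive on array 1 and 1 negative on array 2. Of the 9, 2 were higher beyond 1.3-fold on both arrays, against 2.58% of all genes. In opposite directions 1 of the 9 passed 1.3-fold, as did 21 of the 10600 genes tested. The higher genes were *Cdh2*, N-cadherin, with log2 ratios of 0.60 and 0.44, and *Sox2*, a neural progenitor factor, with 0.44 and 0.47. The gene with opposite directions was *Fabp7*, a radial glial lipid-binding protein, with -0.41 and 0.50, and *Msi1*, the member with a negative ratio on array 2, had -0.17 on both arrays. These last genes were named after their values were seen. Placode genes, which belong to thickened surface ectoderm, passed in 5 of 8 cases with a median log2 ratio of 0.25 and 0.05. *Eya1*, a placode co-activator, was higher on both arrays, with 0.55 and 0.58, and *Eya2* had 0.28 and 0.05. Gut and pharyngeal endoderm genes passed in 0 of 8 cases, with 2 of the 8 well above background in every channel. Their summed signal lay between 285 and 702, and between 283.5 and 475 without *Ttr*, a visceral endoderm and choroid plexus gene named after its values were seen, which had 380.4 in wild type on array 1 and 16.2 or less in the other samples.

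Mesenchymal genes passed in 8 of 8 cases, with 0 called and a median log2 ratio of 0.05 and -0.10. Endothelial genes passed in 2 of 8 cases, with all 8 well above background, and had a median of -0.22 and -0.60. Primitive erythrocyte genes passed in 6 of 10 cases. Their summed processed signal was 469690 in wild type and 251460 in lu/lu on array 1, and 194960 and 238040 on array 2, while the summed signal of the 10 epithelial genes was 9256 and 13759 on array 1 and 12996 and 10101 on array 2. The wild type sample of array 1 thus had the highest erythrocyte sum of the 4 and the lowest epithelial sum, and without *Krt8* and *Krt18* the epithelial sums were 2327 and 3112 on array 1 and 2711 and 2487 on array 2. Gene by gene, 5 of the 10 epithelial genes were lowest in wild type on array 1, 3 in lu/lu on array 2 and 2 in wild type on array 2. The part of the erythrocyte signal in the epithelial ratios was not tested.

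Base composition moved with the ratios. Over the genes tested, the GC content of the probe had a Spearman correlation of -0.38 with the log2 ratio on array 1 and of -0.20 on array 2, a description across genes that share these arrays. The probes of the 7 epithelial genes had a median GC content of 51.7% (35% to 55%), against 41.7% for all genes tested. With the GC trend removed, the mean log2 ratio was 0.37 for *Cdh1*, 0.27 for *Krt18* and 0.18 for *Trp63*, and 0 of the 7 had an adjusted p under 0.05 in limma.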

How the data were processed

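RNA from *Plzf* lu/lu (Cy5) and wild type (Cy3) E10.5 brain was hybridized on 2 Agilent arrays. The authors scanned them with Feature Extraction 10.7.3.1, and the deposited values are background-subtracted, dye-normalized intensity, raw spot and background intensity, flags of 0 or 1, and a log10 ratio (Cy5 over Cy3). The deposited series table holds that ratio as log2, rounded to within 0.005. Positions are those of the deposited annotation (mm9). The array carried 59305 gene spots and 56605 probes.

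From these, controls and outlier spots (137 and 126 on the arrays) were removed and repeated spots of a probe averaged, and a gene took the values of its brightest probe. No gene spot was saturated. Genes passed with processed signal above 200 and a signal-to-noise ratio of at least 5 in all channels. Both minimums and the fold of 1.3 are the study's, and requiring them in every channel and on each array was chosen here. An intercept was fitted to the log2 ratios in R 4.3.3 by limma 3.58.1 (lmFit, eBayes), with Benjamini-Hochberg adjustment over all genes that passed and 1 residual degree of freedom for each. The fit was tested on simulated data. Tables and plots were made with Python 3.11.15, pandas 2.3.3, matplotlib 3.10.9 and the R package for data tables (version 1.17.8).

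The members and gene lists were chosen with earlier results of these data known. Named genes are the members, *Zbtb16*, and from each other list up to 4 genes beyond 1.3-fold in 1 direction on both arrays or, where fewer than 2 qualified, the brightest that passed, up to 2. Some results that this rule selects are not reported here. The pairing of the channels comes from the array. The alternatives were normexp (offset 50) with loess or centring, the deposited log2 table, other signal filters, probes averaged or taken singly, removal of the GC trend (lowess, span 0.67), eBayes with trend, unpaired channels, 1.5-fold, the averaged arrays, and either array by itself. Quantitative RT-PCR, flow cytometry and histology were not analysed here.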

Additional observations from a re-analysis of the deposited data

How the results depend on the processing

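The count of members at an adjusted p under 0.05 in limma was 0 as reported and remained 0 under each alternative that gave a test, with 1 exception. Normexp with median centring over all gene spots gave 6 (all that passed except *Krt19*), but it moved the median of the genes tested from 0.0067 to 0.56 on the log2 scale. The mean log2 ratios of *Krt8* (0.48) and *Krt19* (0.21), now positive, and of *Epcam* (0.54) lay below that median. Normexp with loess put the median of the genes tested at 0.02. Centred on the genes tested instead, an alternative chosen after seeing the data, normexp gave 0 members and a mean log2 ratio of -0.016 for *Epcam*. Fitting the channels without the replicate block that pairs them by array gave 0 members. The number of members higher beyond 1.3-fold on both arrays, 0 as reported, was 1 when 1 channel above the minimum was enough, when spots well above background were used and without a filter (*Grhl3* each time), 1 by the mean of the arrays (*Cdh1*), and 1 after the normexp setting centred over all gene spots (*Trp63*). *Grhl3* had wild type signals under the minimum, and the *Cdh1* mean combines log2 ratios of 1.11 and -0.18. The setting that called *Trp63* is the one that moved the median of the genes tested to 0.56. The cause of the ratios themselves was not tested. With each array alone there is no test. The number higher lay between 0 and 5 and the number lower between 0 and 2, array 2 being left out for the 5 (*Cdh1*, *Epcam*, *Esrp1*, *Krt18* and *Krt8*) and array 1 for the 2 (*Krt8* and *Krt19*). Leaving out array 1 or array 2 gave -0.18 or 1.11 (log2) for *Cdh1*, -0.30 or 0.54 for *Epcam*, -0.065 or 0.44 for *Esrp1*, -0.34 or 0.69 for *Krt18*, -0.83 or 0.22 for *Krt19* and -0.67 or 0.46 for *Krt8*. Leaving out an array took the median of the members that passed from 0.12 to -0.30 or 0.46. The direction of each of these genes therefore rests on which array is read. *Grhl2*, *Grhl3* and *Cldn6* were well above background and missed only the signal minimum of 200. The same held for the *Trp63* probes for NM_011641 and AK138305. Signal over background limits the dim probes of *Esrp1* and *Grhl2* and the dimmest probe of *Trp63*.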
